A study of Mus musculus with 15 samples.

Results

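The cells described here are those of *Mesp1* KO mouse embryos that carried transcripts of the Ai14 reporter (Ai14+), set against the Ai14-negative cells of the same embryos. Of the 93701 cells kept in the series, 16220 came from the 3 *Mesp1* KO embryos, and 1792 of these were Ai14+, meaning that at least 1 unique molecular identifier (UMI, a tag that marks an original RNA molecule) of the Ai14 transgene was counted in the cell. The other 14428 KO cells had none. The Ai14 count therefore chose the members, and the level of Ai14 itself is given only as a description. The question is which programs are taken by cells that have switched on the *Mesp1* locus when they cannot make *Mesp1*.

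The study profiled whole embryos between E6.0 and E7.75 by droplet single-cell RNA sequencing, with a library for each embryo. The KO embryos were homozygous for a Cre insertion that disrupts the gene (*Mesp1* Cre/Cre), whereas controls kept at least 1 wild-type *Mesp1* allele. Since Ai14 expression needs Cre, controls with Ai14 expression are taken here to be *Mesp1* Cre/+. All groups used here carried Hipp11 Smarcd3-F6::eGFP, an enhancer reporter of early cardiac progenitors, on a C57BL/6J background. They also carried Rosa26R-Ai14, a red reporter that Cre turns on permanently, apart from 2 control embryos that lacked Ai14 expression and serve only as background. Those 2 were aged early E7.5 (middle stage) and late E7.5 (late stage). Because Cre is driven by the *Mesp1* locus, the Cre dose and the loss of *Mesp1* cannot be told apart between genotypes. The KO embryos were staged at E6.5, E7.0 and late E7.5, so each stage had 1 KO embryo and the 3 pairs of fractions differ in stage, and the 10 control embryos with the reporter comprised 5 early ones of E6.0, late E6.0 or E6.5, a middle pair aged late E6.5 and E7.0, and 3 late ones aged late E7.5 or E7.75.

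*Mesp1* encodes a basic helix-loop-helix transcription factor that is switched on briefly in mesoderm leaving the primitive streak. Its descendants are known to build much of the heart, the cranial mesoderm, and blood vessels, and extra-embryonic mesoderm is among the earliest tissues to leave the streak. Definitive endoderm leaves the anterior streak, and *Eomes*, which acts upstream of *Mesp1*, is required for both layers.

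The targeted gene was examined first. *Mesp1* had 0 UMIs in either fraction of the E6.5 KO embryo, 0 UMIs in Ai14+ and 1 UMI in Ai14-negative cells at E7.0, and 2 and 3 UMIs at late E7.5. In early control embryos it reached between 247 and 474 CPM (UMIs of a gene per 1000000 UMIs of the summed cells) in Ai14+ cells and between 58.3 and 92.1 CPM in Ai14-negative cells. No library went against its genotype label in these values. Control levels are given for the early stage alone, so the E7.0 and late E7.5 KO libraries have no comparison of their stage here.

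Ai14+ cells made up 439 of 1693 cells (25.9%, 95% exact interval 23.9 to 28.1) at E6.5, 393 of 1674 cells (23.5%) at E7.0 and 960 of 12853 cells (7.47%) at late E7.5. Intervals on shares cover counting error only. The late KO library was shallow, with a median of 3827 UMIs per cell against 29869 and 25728.5 in the others, and 877 of its 960 Ai14+ cells held exactly 1 Ai14 UMI. With every cell thinned to 2000 UMIs, and shallower cells left out, the shares were 4.58% (76 of 1661 cells), 3.67% (60 of 1637) and 3.83% (411 of 10727), so the late share was no longer the lowest. The 2 control embryos that lacked the reporter gave Ai14 UMIs in 2.70% and 2.44% of cells, which sets the background, and visceral endoderm-like cells of the KO embryos, a lineage that *Mesp1* does not mark, gave 2.30% (4 of 174 cells), 1.3% (4 of 308) and 2.27% (16 of 704) at median depths of 30748, 22411 and 5449 UMIs, against 29490, 20231 and 3245 UMIs in the definitive endoderm-like cells described further on. With cells scored as doublets left out, these visceral endoderm-like shares were 1.17% (2 of 171), 0.658% (2 of 304) and 0.522% (3 of 575), and the definitive endoderm-like shares 29.7%, 24.4% and 7.28%. Control shares averaged 21.3% ± 1.94 (SD, n = 5) at the early, 18.4% ± 6.17 (n = 2) at the middle and 16.3% ± 10.3 (n = 3) at the late stage, and the KO share exceeded them by 0.304 percentage points on average over stages. That difference changed sign to -1.87 points without the E6.5 KO embryo and to -2.08 points without the E7.0 embryo, and was 4.86 points without the late embryo. The late KO library shared between 116 and 363 cell barcodes with each of the 4 late control libraries, and the KO libraries shared between 5 and 29 with each other. Middle controls of 2130, 5582 and 5861 cells shared 48, 104 and 120 with the late KO library. The overlap expected by chance was not computed.

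To see where in the KO embryo the marked cells lay, the cells of each embryo were clustered with the marker genes and reporters held out, and clusters were then called "X-like" from those markers. At E6.5, 123 of 145 lateral plate and extra-embryonic mesoderm-like cells (84.8%) were Ai14+, as were 35 of 48 endothelium and hemangioblast-like cells (72.9%). At E7.0 the corresponding shares were 75.0% (66 of 88 cells) and 87.5% (35 of 40 cells), and at late E7.5, where fewer UMIs were read per cell, 15.9% (201 of 1265 cells) and 10.7% (85 of 797 cells). Most cells of these classes were thus Ai14+ at E6.5 and E7.0. A further cluster in each KO embryo, left unnamed because it combined *Mixl1*, *Lhx1* and *Tdgf1* of the streak with *Dll3* of the nascent mesoderm, was 68.1% Ai14+ (109 of 160 cells), 69.1% (143 of 207) and 13.4% (131 of 974). At E6.5 it held 24.8% of all Ai14+ cells. All unnamed clusters together held 47.6% of the Ai14+ cells at E7.0 (187 of 393) and 38.75% at late E7.5 (372 of 960). At these 2 ages no named class held as many Ai14+ cells. Epiblast-like cells were Ai14+ in only 6.82%, 5.42% and 1.38% of cases. The late embryo also held an allantois-like cluster (17.9%, 40 of 224 cells) and an unnamed cluster led by *Pcsk5*, *Asb4* and *Fbln2* (13%, 168 of 1293 cells).

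**Figure D1:**
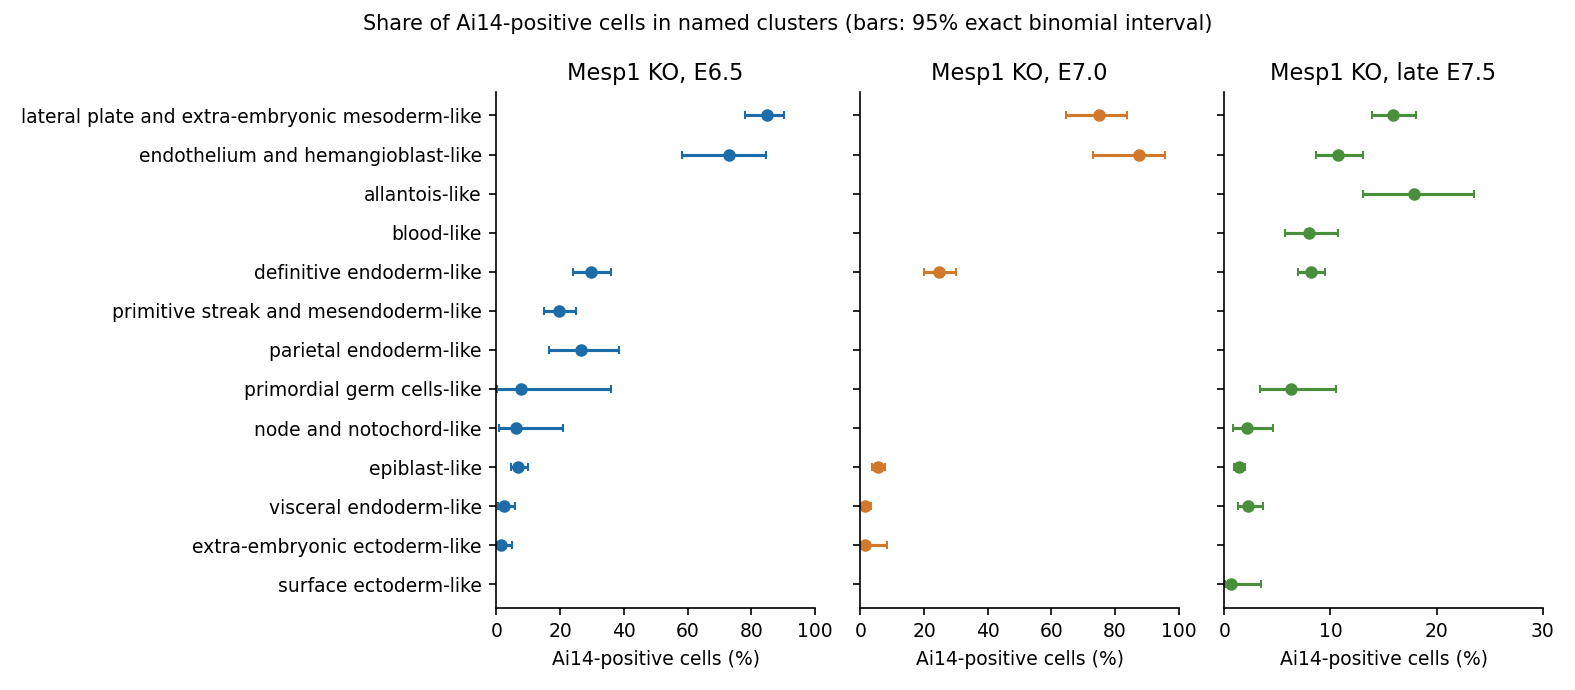
Percentage of cells with at least 1 Ai14 UMI in each named class of clusters, for the 3 KO embryos, with exact 95% binomial intervals as bars. The endothelium-like class and the lateral plate class reach 72.9% to 87.5% at E6.5 and E7.0, whereas visceral endoderm-like cells stay between 1.3% and 2.30%.

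The definitive endoderm-like class held Ai14 UMIs in 71 of 239 cells (29.7%), 72 of 291 (24.7%) and 159 of 1953 (8.14%), above the visceral endoderm-like cells of the same libraries. It was not the sole such class at E6.5, where 18 of 68 parietal endoderm-like cells (26.5%) and 50 of 254 streak and mesendoderm-like cells (19.7%) were Ai14+. It made up 16.2%, 18.3% and 16.6% of all Ai14+ KO cells and 13.4%, 17.1% and 15.1% of the Ai14-negative cells. These shares of the fractions were not tested against each other, and cells with 0 Ai14 UMIs can include cells of the lineage, most of all in the shallow late library. By the same count, lateral plate and extra-embryonic mesoderm-like cells made up 28.0%, 16.8% and 20.9% of the Ai14+ and 1.75%, 1.72% and 8.95% of the Ai14-negative cells.

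Next, UMIs were summed over the Ai14+ and over the Ai14-negative cells of each KO embryo and compared within embryos. Since the sums mix cell types, a greater number of cells of a type and more RNA per cell cannot be told apart in them. Of 13878 genes tested, 2888 (20.8%) passed (edgeR quasi-likelihood test, Benjamini-Hochberg adjusted p below 0.05), with 1149 higher (8.28%) and 1739 lower (12.5%) in Ai14+ cells, and the median log2 difference over all genes was 0.01. Cells of the Ai14+ fraction had more UMIs (medians of 33201 against 28283, 31319 against 23354, and 4500 against 3768). With negative cells matched for depth 2404 genes passed, but after thinning every cell to 2000 UMIs only 211 did. Leaving out the late embryo gave 5656 calls, against 435 without the E6.5 and 388 without the E7.0 embryo. What part depth has in these counts was not tested.

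Genes of the nascent mesoderm were higher in Ai14+ cells, with 10 of 11 tested passing, none lower and a median log2 difference of 1.64. *Mesp2*, the neighbouring paralogue of *Mesp1*, measured 9.53 CPM in Ai14+ against 2.55 CPM in Ai14-negative cells at E6.5, 11.4 against 2.53 at E7.0 and 5.21 against 2.96 at late E7.5. The Ai14+ level was higher in all 3 embryos, by 1.72 ± 0.25 on the log2 scale (SE of the edgeR fit to 3 embryos, edgeR adjusted p = 0.0071). Each SE of a log2 difference is that difference divided by the square root of its F statistic. It does not measure the spread between embryos. *Lefty2*, an inhibitor of Nodal signalling, rose by 2.32 ± 0.52 (edgeR adjusted p = 0.0238), *Aplnr*, a receptor used by migrating mesoderm, by 1.73 ± 0.28, and *Snai1*, a repressor of epithelial genes, by 1.16. *Tbx6* did not pass (adjusted p = 0.0533).

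In the epithelial to mesenchymal list 6 of 11 members were higher in Ai14+ cells and 3 were lower. *Fn1*, a matrix protein laid down by mesoderm, measured 619 against 111 CPM, 549 against 122 CPM and 319 against 188 CPM, a log2 difference of 1.83 ± 0.30 (edgeR adjusted p = 0.00994). *Vim* and *Cdh2*, a filament protein and a cadherin of mesenchymal cells, rose by 1.26 and 1.13. The 3 lower members were the epithelial junction genes *Cdh1*, *Epcam* and *Cldn6*, which fell by 1.52, 1.23 and 1.5, and *Cdh1* measured 20.7 against 64.1 CPM, 19.3 against 66.4 CPM and 13.7 against 24.9 CPM. In all 3 embryos the junction gene was low and the matrix gene high on the Ai14+ side.

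Streak and mesendoderm genes were still present in the marked fraction. Of 11 tested, 8 were higher, 1 was lower, and the median was 0.63. *Mixl1*, a homeobox gene of the streak and mesendoderm, measured 212 against 70.7 CPM, 178 against 56.3 CPM and 38.6 against 32.6 CPM (1.26 ± 0.24, edgeR adjusted p = 0.0153). *Eomes* measured 187 against 118 CPM, 169 against 104 CPM and 62.7 against 49.5 CPM, and *Tdgf1*, a Nodal co-receptor, 730 against 331 CPM, 655 against 309 CPM and 125 against 105 CPM. In each of these genes the gap was wide at E6.5 and E7.0 and narrow in the shallow late library. *T* did not pass (adjusted p = 0.21) and was lower in Ai14+ cells at late E7.5 (46.2 against 57.9 CPM) though higher at E6.5 and E7.0. *Nodal* was the member that fell, by 0.91 ± 0.13.

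Genes of cardiac regulation were higher in 9 of 13 cases, none was lower, and the median was 1.69. *Hand1*, a regulator of extra-embryonic and cardiac mesoderm, measured 138 against 27.2 CPM, 141 against 29.2 CPM and 301 against 178 CPM. *Tbx5*, a regulator of the first heart field, was far lower in level, at 1.16 against 0.0614 CPM, 1.37 against 0.139 CPM and 1.08 against 0.277 CPM, yet passed (2.97 ± 0.50, edgeR adjusted p = 0.0103). *Nkx2-5* rose by 1.66 (adjusted p = 0.042) on levels between 0.651 and 2.56 CPM in Ai14+ cells, and *Tbx20* by 1.94, at 22.8 to 23.4 CPM. *Gata5* (adjusted p = 0.058), *Smarcd3* (0.059), *Mef2c* (0.099) and *Myocd* (0.11) did not pass. Contractile genes followed, with 7 of 9 higher and a median of 1.47. *Actc1*, cardiac actin, measured 4.37 against 0.614 CPM, 7.17 against 1.28 CPM and 11.5 against 5.09 CPM, and *Myl7*, an atrial light chain, 45.1 against 12.6 CPM, 50.4 against 18.6 CPM and 113 against 81.7 CPM. *Myh6*, *Myh7* and *Ttn* had too few UMIs to be tested.

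Of 15 lateral plate and extra-embryonic mesoderm genes 14 were higher and *Tagln2* was lower (median 1.3). *Foxf1*, a forkhead gene of splanchnic mesoderm, measured 4.37 against 0.307 CPM, 5.89 against 0.451 CPM and 12.1 against 4.90 CPM (2.53 ± 0.48, edgeR adjusted p = 0.0147). *Pmp22* and *Col1a1* rose by 2.53 and 2.29, and *Bmp4*, a ligand from extra-embryonic mesoderm, by 1.3, at 57.8 against 20.5 CPM, 35.0 against 11.4 CPM and 56.8 against 33.0 CPM. Endothelial and hemangioblast genes were higher in 6 of 11 cases (median 2.13), led by *Kdr*, the VEGF receptor, at 79.1 against 4.66 CPM, 66.7 against 5.17 CPM and 36.0 against 18.3 CPM (2.92 ± 0.56, edgeR adjusted p = 0.0151). *Etv2* and *Fli1*, regulators of the same lineage, rose by 2.04 and 2.79. Of 6 blood genes *Gata1* alone passed, of 9 paraxial and presomitic mesoderm genes 4 were higher and 1 lower (median 1.35), of 4 allantois genes 1 was higher (*Cdx4*), and of 7 HOX genes 6 rose, among them *Hoxb1* (1.74).

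Genes of several other lineages were lower. Visceral endoderm genes were lower in 11 of 11 cases (median -3.46), with *Ttr*, a secreted carrier protein, at 61.9 against 1251 CPM, 119 against 1826 CPM and 372.5 against 1611 CPM. Epiblast genes were lower in 10 of 10 (median -1.37) and neural ectoderm genes in 8 of 8, with *Sox2* at 12.8 against 71.5 CPM, 12.5 against 54.0 CPM and 4.77 against 14.6 CPM (-2.21 ± 0.14). Node genes were lower in 5 of 7 cases, including the notochord regulator *Noto*, and extra-embryonic ectoderm genes in 6 of 8. The remaining lists of lineages outside the mesoderm gave 2 higher and 2 lower of 7 surface ectoderm genes, 2 lower of 7 germ cell genes, 0 of 8 parietal endoderm genes, and 1 higher (*Cxcr4*) and 3 lower (*Foxa2*, *Cer1* and *Cpn1*) of 9 definitive endoderm genes. Stress and dissociation genes passed in 1 of 12 cases, a lower one.

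**Figure D2:**
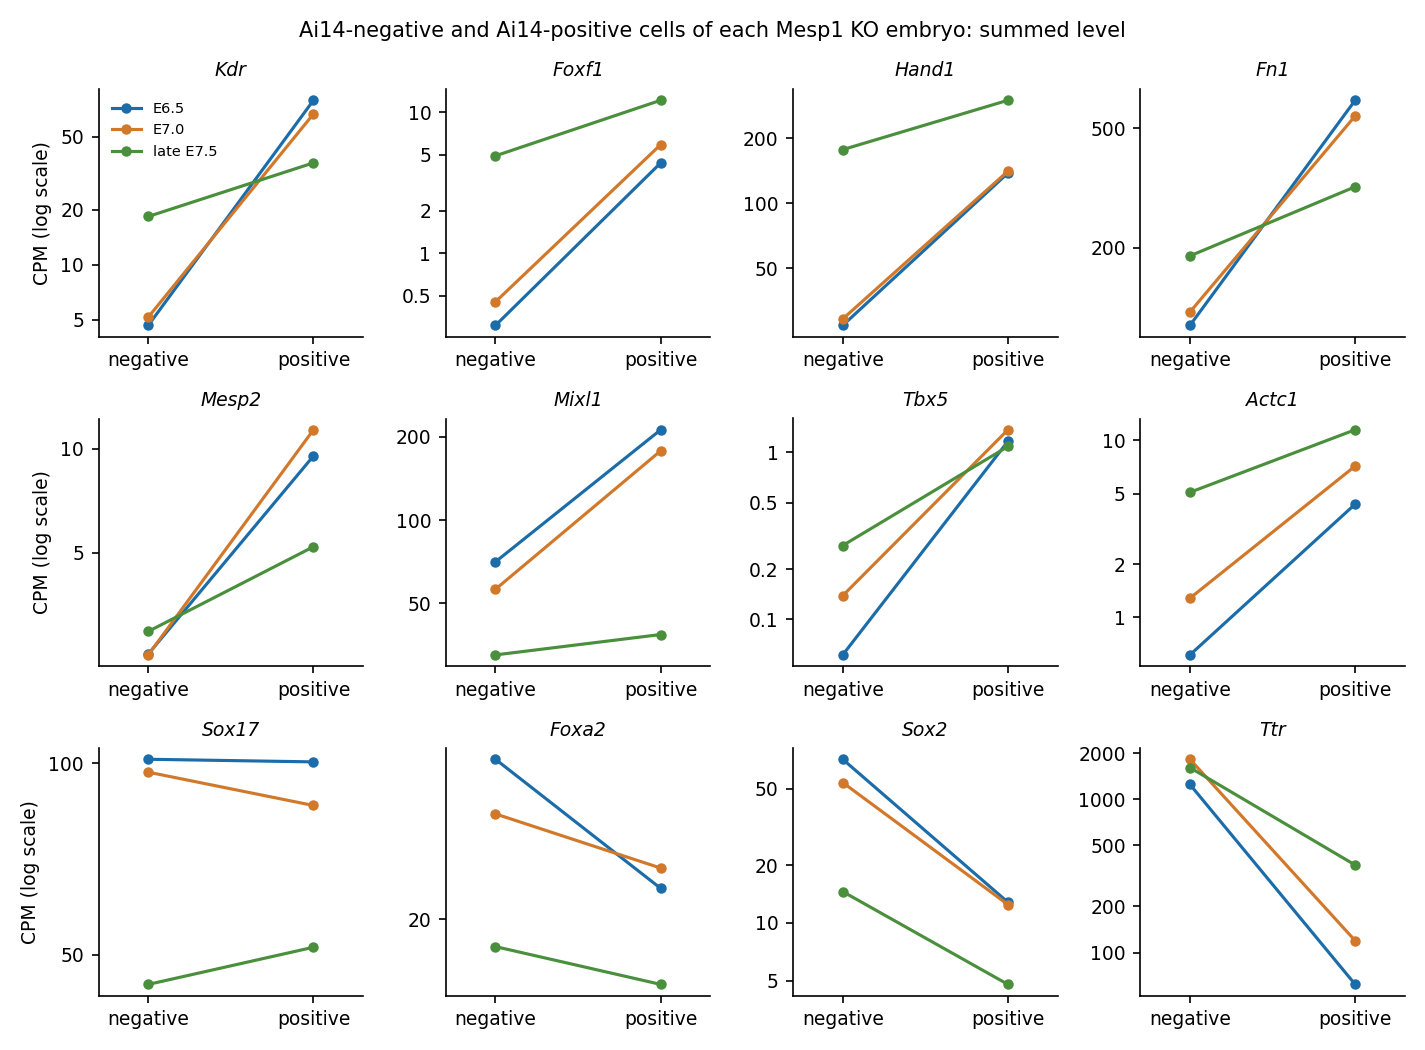
Levels (CPM, log axis) of 12 genes in the summed Ai14-negative and Ai14+ cells of each KO embryo, with a line joining the fractions of an embryo. *Kdr*, *Foxf1*, *Fn1* and *Actc1* are higher on the Ai14+ side in all 3 embryos, *Sox2* and *Ttr* are lower, and *Sox17* lies nearly level.

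Most signalling lists held genes moving in both directions, and the lists were not tested against each other. In the WNT list 8 of 13 were higher, including the ligands *Wnt3* (0.78) and *Wnt5a* (1.03), the target *Axin2* (0.65) and *Rspo3* (1.64), whereas *Wnt8a* fell by 1.91. In the BMP list 7 of 15 rose, among them *Bmp2*, *Bmp4*, *Bmp5* and the target *Msx2*, while the targets *Id1* and *Id2* fell by 0.37 and 2.06. FGF genes split, with 4 of 16 higher and 5 lower. *Fgf3* measured 57.2 against 6.90 CPM, 63.2 against 4.61 CPM and 56.2 against 37.4 CPM, and *Fgf10* and *Fgf8* rose by 2.25 and 0.63, but *Etv4*, *Etv5* and *Spry2*, which respond to FGF signalling, fell by 0.83, 0.39 and 0.89. The Nodal list gave 4 higher and 2 lower of 10, and the Notch list 4 higher of 11 (*Dll3*, *Hey2*, *Hes1* and *Notch2*). Among guidance and migration genes 9 of 15 were higher, with *Cxcr4* at 14.8 against 3.68 CPM, 14.6 against 5.34 CPM and 8.89 against 7.31 CPM, while its ligand *Cxcl12* fell by 1.93. Of the 58 genes tested that the study itself had named for *Mesp1* KO, 34 were higher and 7 lower, a count on genes picked from these samples that is no independent evidence.

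Counts in several of these lists fell without the E6.5 or the E7.0 pair and rose without the late pair. Without the E6.5 embryo no member of the streak, nascent mesoderm, sarcomere or endothelial lists passed, and 2 of 13 cardiac and 4 of 16 lateral plate members did. Without the E7.0 embryo the same 4 lists had no call and the cardiac and lateral plate lists kept 1 and 4. Without the late embryo all 13 cardiac, 11 of 11 nascent mesoderm and 10 of 10 endothelial members passed. Over all genes, 71 were higher and 364 lower of 13948 without the E6.5 embryo, and 46 and 342 of 14395 without the E7.0 embryo. Without the late embryo 2498 were higher and 3158 lower of 14178, and after thinning 57 and 154 of 9064. The medians of these 6 lists stayed above 0 in each case (for example 1.31, 1.27 and 2.03 for the nascent mesoderm), as did those after thinning, where 3 of 8 nascent mesoderm and 8 of 15 lateral plate members passed. The visceral endoderm list had 11 of 11 lower in each of these settings.

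By size of change, the genes named as most raised in Ai14+ KO cells were *Kdr*, *Fli1*, *Wnt2* (2.75), *Pmp22*, *Hapln1* (2.48), *Pcsk5* (2.47), 6230427J02Rik (2.44), *Fgf3* (2.40), *Fbln2* (2.35), *Pcdh18* (2.33), *Bmp5* (2.31) and *Col1a1*. Among the most reduced were 4933402E13Rik (-4.13), *Slc2a2* (-4.03), *Gipc2* (-3.97), *Apoa4* (-3.95), *Fabp1* (-3.93), *Car7* (-3.88), 2010003K15Rik (-3.83), *Fgg* (-3.78), *Cdkn2a* (-3.78), *Afp* (-3.78) and *Creb3l3* (-3.77). Several of the latter, such as *Apoa4*, *Fgg* and *Afp*, are secreted or metabolic products of visceral endoderm and liver. Without the E6.5 or without the E7.0 KO embryo the named raised genes did not pass (*Kdr* at an edgeR adjusted p of 0.0871 and 0.107). The named reduced genes passed in both settings, except *Cdkn2a* (0.0815 and 0.0643).

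The Smarcd3-F6 enhancer reporter (eGFP_transgene in the count tables) was compared next. In KO embryos 133 of 439 Ai14+ cells (30.3%) held an eGFP UMI at E6.5 against 5.98% of Ai14-negative cells, 31.3% against 3.67% at E7.0, and 5.73% against 3.45% at late E7.5. The mean gap of 18.1 percentage points had the same sign in all 3 embryos (exact sign-flip test, two-sided p = 0.25, the smallest that 3 pairs allow) and was 3.09 points with every cell thinned to 2000 UMIs. As summed counts, eGFP measured 12.6 against 2.55 CPM, 14 against 1.80 CPM and 12.4 against 9.12 CPM (log2 1.86 ± 0.43, edgeR adjusted p = 0.0256). Controls gave a log2 difference of 2.30 for eGFP, and the test of the difference between genotypes did not pass (-0.53 ± 0.36, adjusted p = 0.785).

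The contrast was repeated within mesoderm-like clusters, where Ai14+ and Ai14-negative cells numbered 158 and 35, 101 and 27, and 326 and 1960. Of 9345 genes tested, 1 passed (0.0107%, edgeR), and DESeq2 also called 1. An unadjusted p below 0.05 was found for 358 genes, fewer than that threshold alone would give. Ai14-negative cells of these clusters can include cells of the lineage whose Ai14 was not counted, and their part in these counts was not tested. The passing gene was *Slc2a3*, a glucose transporter, at 129 against 265 CPM, 253 against 490 CPM and 159 against 189 CPM (log2 -0.74 ± 0.10). *Fn1* (0.25), *Ifitm3* (-0.76), *Actc1* (1.44), BC023829 (-0.86) and *Tagln* (0.40) had the smallest p-values among the rest and did not pass. *Kdr* measured 142 against 135 CPM, 108 against 69.4 CPM and 44.0 against 39.3 CPM, and *Hand1* 294 against 365 CPM, 402 against 488 CPM and 532 against 498 CPM, and neither passed. No gene list had a passing member, and eGFP_transgene differed by 0.08 ± 0.26. Whether smaller differences could have been detected was not tested. Leaving out the E6.5, E7.0 and late embryos gave 5, 5 and 18 calls, and counting the unnamed streak and nascent mesoderm clusters as mesoderm gave 28.

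Among all other clusters, 2745 of 13611 genes passed (20.2%, edgeR), 1083 higher (7.96%) and 1662 lower in Ai14+ cells, and there the streak list had 10 of 11 higher (median 1.05) and the nascent mesoderm list 11 of 11 (1.81). These clusters include the unnamed *Mixl1*- and *Dll3*-led cells, and 1266 genes passed once those were moved to the mesoderm. *Lefty2* rose by 2.77 and *Mixl1* by 1.68. Leaving out the E6.5, E7.0 or late embryo gave 1032, 796 or 4585 calls, and thinning left 139.

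**Figure D3:**
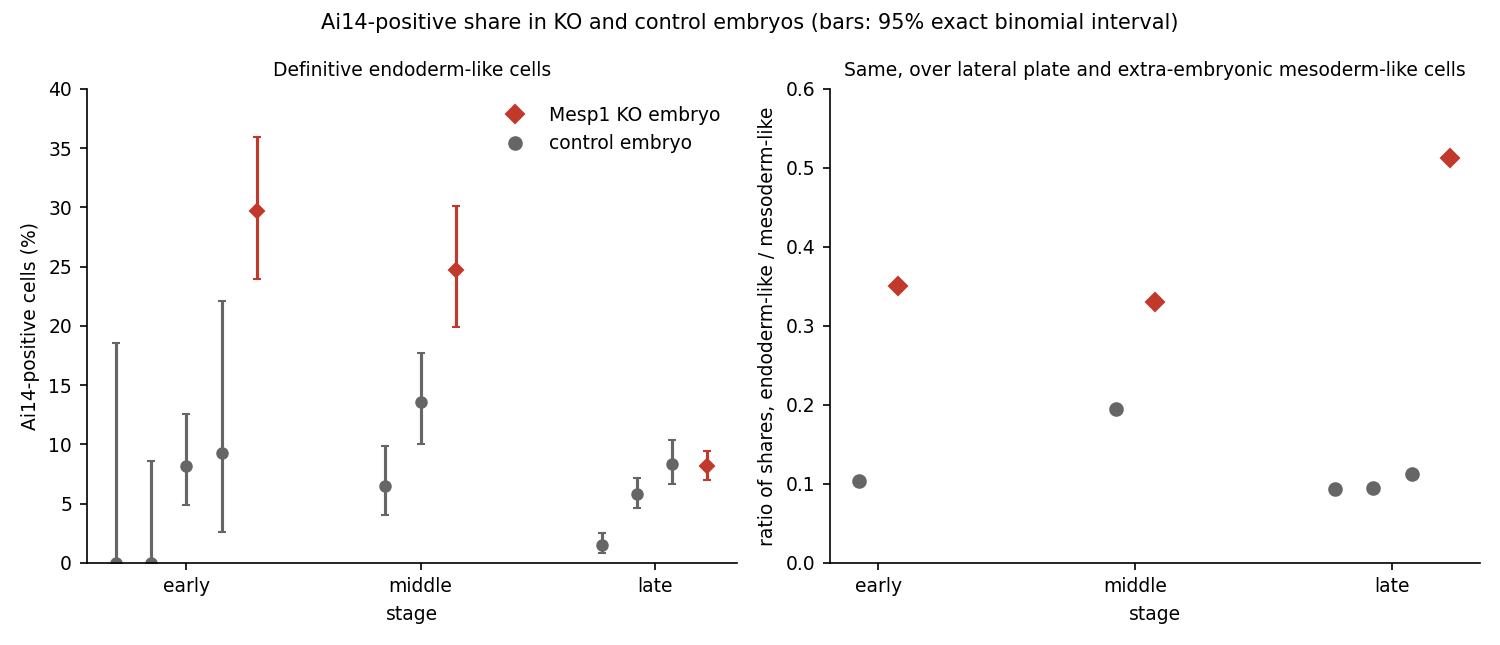
Left, percentage of definitive endoderm-like cells with an Ai14 UMI in each embryo by stage, KO and control, with exact 95% intervals. Right, that percentage divided by the percentage in lateral plate and extra-embryonic mesoderm-like cells of the same embryo; the KO ratios of 0.330 to 0.512 lie above the control ratios of 0.0938 to 0.195.

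The Ai14+ share of the definitive endoderm-like class is set beside that of controls as a description, without a test, since the Ai14 count chose the cells. In controls the Ai14+ share of definitive endoderm-like cells was 0% (0 of 18 cells) and 0% (0 of 41 cells) in 2 E6.0 embryos, 9.30% (4 of 43) at late E6.0, 8.14% (18 of 221) at E6.5, 6.51% and 13.5% (44 of 325) at the middle stage, and 5.77%, 1.5% and 8.38% at the late stage. The KO shares of 29.7% and 24.7% lay above every control, whereas the late KO share of 8.14% lay within the late control range. Averaged over stages the KO exceeded the controls by 14.3 points (12 embryos), a comparison chosen after its values were seen. Against controls of the same age only, the gap was 11.7 points. Each of these controls came from another experiment than the KO embryo of its age, so genotype and experiment cannot be told apart there. Against all controls, with cells thinned to 2000 UMIs, the gap was 3.95 points. The gap was 20.03 points without the late KO embryo, 14.1 without the E7.0 embryo and 8.82 without the E6.5 embryo. In the experiments that held both genotypes, the early KO share of 29.7% stood beside 0% and 9.30%, and the late KO share of 8.14% beside 1.5%. The E7.0 KO embryo had no control of its stage in its experiment. The endoderm-like cells of the E6.0 and late E6.0 controls differed in kind, since *Ttr*, a visceral endoderm gene, was detected in 79.5% to 100% of their Ai14-negative cells against 16.7% in the E6.5 KO embryo and 11.8% in the E6.5 control. Those of the late controls differed too. *Ttr* was detected in 50.9%, 26.5% and 45.2% of their Ai14-negative cells against 22.3% in the late KO embryo. For *Cer1* these shares were 4.31%, 1.41% and 39.2% against 59.9%.

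Depth and the detection of Ai14 differ between libraries, so the endoderm share was also divided by the share in lateral plate and extra-embryonic mesoderm-like cells of the same embryo. This ratio was 0.350, 0.330 and 0.512 in the KO embryos and 0.103, 0.195, 0.112, 0.0943 and 0.0938 in the 5 controls that had both classes. The ratios differed by 0.265 on average over stages. Both shares in the ratio rest on the Ai14 count that chose the cells, and the ratio was added after the data were seen, so it is a description of these 8 embryos.

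Within the KO endoderm-like cells the 2 defining regulators were shared by marked and unmarked cells. *Sox17* was detected in 98.6% of Ai14+ and 98.8% of Ai14-negative cells at E6.5, in 98.6% and 90.0% at E7.0, and in 56.6% and 43.0% at late E7.5. Its level was 415 against 445 CPM, 287 against 347 CPM and 233 against 205 CPM, and neither *Sox17* (log2 -0.11 ± 0.07, edgeR adjusted p = 0.549) nor *Foxa2* (0.10 ± 0.10, adjusted p = 0.821) passed. *Foxa2* measured 92.2 against 87.6 CPM, 83.6 against 68.8 CPM and 58.3 against 63.7 CPM. It was detected in 84.5% of Ai14+ and 81.0% of Ai14-negative cells at E6.5, in 84.7% and 62.1% at E7.0, and in 23.3% and 19.0% at late E7.5. Both genes are among the markers that named these clusters, so their presence on both sides is partly built in.

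Other genes separated the marked from the unmarked endoderm. Of 9865 genes tested 204 passed in edgeR (2.07%), 104 higher and 100 lower, but DESeq2 called 21, all among the 204, and only those are led with here. Higher in Ai14+ endoderm-like cells were *Ppic*, a cyclophilin, at 130 against 53.3 CPM, 136 against 60.04 CPM and 43.0 against 29.7 CPM (1.12 ± 0.11), *Vim*, at 503 against 315 CPM, 481 against 308 CPM and 270 against 190 CPM (0.61 ± 0.06), and the streak ligand *Fgf8*, at 543 against 336 CPM, 315 against 252 CPM and 132 against 90.2 CPM (0.51 ± 0.07, DESeq2 adjusted p = 0.00199). All 3 were higher on the Ai14+ side in each KO embryo. *Peg3*, *S100a10* and *Upp1* rose by 0.46, 0.38 and 0.39. The eGFP reporter (eGFP_transgene) rose too, at 10.6 against 1.58 CPM, 13 against 0.695 CPM and 12.5 against 9.42 CPM. Of the genes called by both tools 14 were lower in Ai14+ cells. *Apoa1*, an apolipoprotein of visceral endoderm, measured 22.1 against 63.0 CPM, 48.8 against 97.6 CPM and 25.0 against 67.1 CPM (-1.25 ± 0.13). Its list was mixed in edgeR, with 2 of 10 visceral endoderm genes higher (*Cubn* and *Apoe*) and 3 lower (*Apoa1*, *Rbp4* and *Trap1a*). *Ttr* was detected in 23.9% of Ai14+ against 16.7% of Ai14-negative cells at E6.5, 33.3% against 26.03% at E7.0 and 16.4% against 22.3% at late E7.5. *Bmp2* measured 12.5 against 27.1 CPM, 6.75 against 30.6 CPM and 30.5 against 58.6 CPM (-1.36 ± 0.19). *Krt7*, *Nnat*, *Mest*, *Spink3*, *Tspan7*, *Cd24a* and *Cldn7* were among the others.

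Of 9 definitive endoderm genes tested in these cells 3 were lower in edgeR (*Cer1*, *Hhex* and *Trh*) and none higher, and of 3 neural ectoderm genes 3 were lower (*Hesx1*, *Six3* and *Otx2*), while DESeq2 called none of these 6. *Sfrp5* did not pass (-0.25, edgeR adjusted p = 0.476). *Cer1* and *Hhex* are known from both the anterior visceral and the anterior definitive endoderm, as is *Hesx1*, which also marks the forebrain. *Hesx1* measured 7.68 against 64.5 CPM, 5.71 against 70.2 CPM and 30.5 against 64.8 CPM (-2.66 ± 0.19, DESeq2 adjusted p = 0.119), and was detected in 4.23%, 2.78% and 11.9% of Ai14+ against 24.4%, 23.7% and 16.8% of Ai14-negative cells. *Cer1* measured 646 against 1244 CPM, 396 against 960 CPM and 393 against 481 CPM (-0.92 ± 0.06, DESeq2 adjusted p = 0.483). *Hhex* and the WNT inhibitor *Dkk1* differed by -1.19 and -1.04. For *Hesx1*, *Cer1*, *Hhex* and *Dkk1* the Ai14+ level was below the Ai14-negative level in all 3 embryos, with the smaller gap at late E7.5. *Trh* was lower on the Ai14+ side at E6.5 (560 against 1316 CPM) and E7.0 (961 against 1669 CPM), but higher at late E7.5 (1332 against 1167 CPM).

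**Figure D4:**
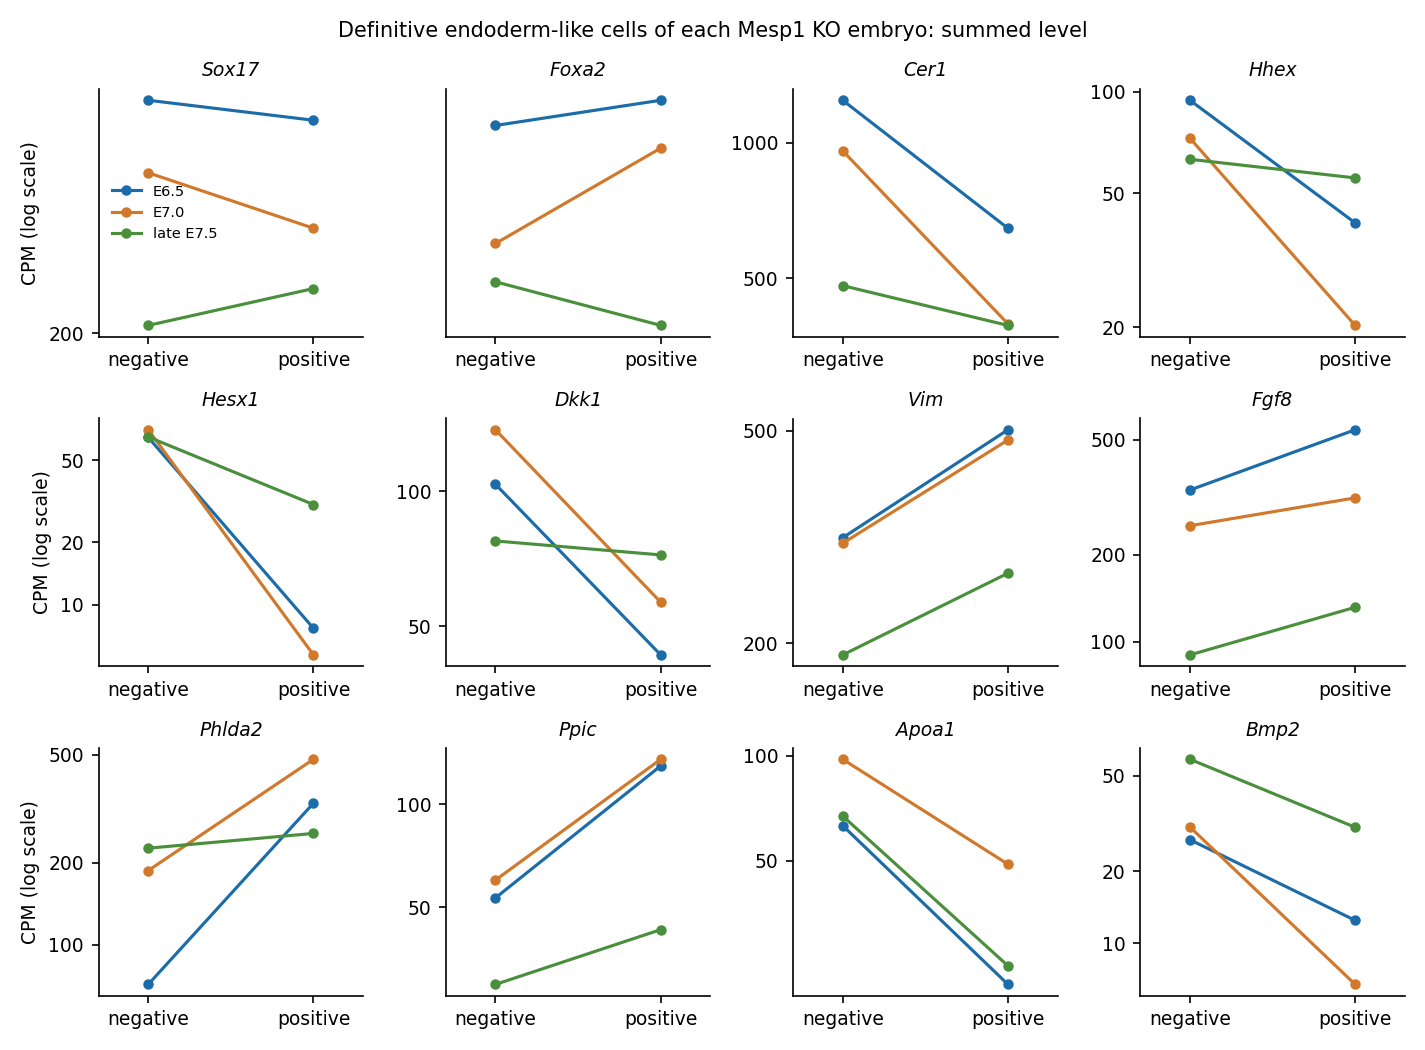
Levels (CPM, log axis) of 12 genes in Ai14-negative and Ai14+ definitive endoderm-like cells of each KO embryo. *Sox17* and *Foxa2* lie close to level, *Vim*, *Fgf8* and *Ppic* are higher and *Cer1*, *Hesx1*, *Hhex*, *Apoa1* and *Bmp2* lower on the Ai14+ side.

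Mesoderm genes were counted beside these values. Of 10 lateral plate and extra-embryonic mesoderm genes 6 were higher in Ai14+ endoderm-like cells and 1 lower (edgeR), with *Hand1* at 5.28 against 3.84 CPM, 5.71 against 6.95 CPM and 61.0 against 21.9 CPM, and *Phlda2* was 332 against 71.3 CPM, 481 against 187 CPM and 257 against 226 CPM (edgeR 1.28, DESeq2 adjusted p = 1.0). DESeq2 called none of the lateral plate and extra-embryonic mesoderm genes. Of the 5 nascent mesoderm genes tested *Phlda2* alone passed, in edgeR only. The part of doublets and of free mesoderm RNA in these calls was not tested beyond leaving out cells scored as doublets, after which 130 genes passed, and thinning left 1 gene in the 2 embryos with enough cells. Leaving out the E6.5, E7.0 and late embryo gave 79, 68 and 317 edgeR calls. In the 6 controls with enough marked endoderm-like cells, 72 of 10137 genes passed (0.71%). There *Aldh1a2*, *Foxc2*, *Foxf1*, *Mesp1* and *Pdgfra* rose by 2.87, 2.995, 2.61, 2.42 and 1.89, and *Ppic* by 0.45. By list, 9 of 10 nascent mesoderm and 5 of 8 paraxial and presomitic mesoderm genes were higher in these controls, and 0 were lower. Of 13 lateral plate and extra-embryonic mesoderm genes 3 were higher and 1 lower. The test between genotypes within these cells called 28 of 11282 genes (0.248%), 6 higher (0.0532%) and 22 lower, including *Hesx1* (-2.09 ± 0.22), *Apoa1* (-2.20), *Dkk1* (-1.08), *Cer1* (-0.80 ± 0.12) and *Vim* (0.49, edgeR adjusted p = 0.0115), while *Sox17* (0.08) and *Foxa2* (-0.01) did not pass. This test and the one in controls were run with edgeR in the main setting only. Whether their calls hold with DESeq2, after thinning or with an embryo left out was not tested.

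Finally, the Ai14+ against Ai14-negative difference over all cells was compared between genotypes in 1 model of the 13 embryos with the reporter. In controls alone, 6495 of 14179 genes passed (45.8%), 3071 of them higher in Ai14+ cells (21.7%). The difference between genotypes passed for 73 of 16338 genes (0.447%, edgeR), with 49 higher (0.3%) and 24 lower (0.147%) in KO relative to control, and 1390 had an unadjusted p below 0.05. Definitive endoderm genes were higher in 3 of 10 cases with none lower (median 0.77 against -0.02 over all genes), namely *Sox17*, *Foxa1* and *Cpn1*. In controls *Sox17* was lower in the Ai14+ cells of 9 of 10 embryos, from 7.09 against 35.7 CPM and 8.53 against 43.2 CPM at E6.0 to 20.5 against 60.005 CPM at E7.0, and in a late control it was level at 8.65 against 8.71 CPM. That late control shared its experiment with the late KO embryo. In KO embryos *Sox17* measured 101 against 101 CPM, 85.9 against 96.9 CPM and 51.4 against 45.0 CPM. Over all 13 embryos this gave a log2 difference between genotypes of 1.43 ± 0.22 (edgeR adjusted p = 0.00934). Adjusted p was 0.127 without the E6.5 KO embryo, 0.0782 without the E7.0 embryo and 0.0882 after thinning. *Foxa1*, a partner of *Foxa2*, differed by 1.62 ± 0.29 (adjusted p = 0.0189) on levels of 2.04 to 4.18 CPM in Ai14+ KO cells, and its adjusted p was 0.0768, 0.255 and 0.0548 without the E6.5, E7.0 and late KO embryo. That of *Cpn1* was 0.0978, 0.232 and 0.119 in the same settings and 0.0939 with DESeq2, so neither of these calls outlasted the loss of any KO embryo. *Foxa2* itself did not pass (1.11 ± 0.25, adjusted p = 0.0803), but did so in 6 of 12 alternatives, among them DESeq2 (0.0435) and thinning (0.00285). *Cer1* (0.46) and *Hhex* (-0.38) passed in none.

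**Figure D5:**
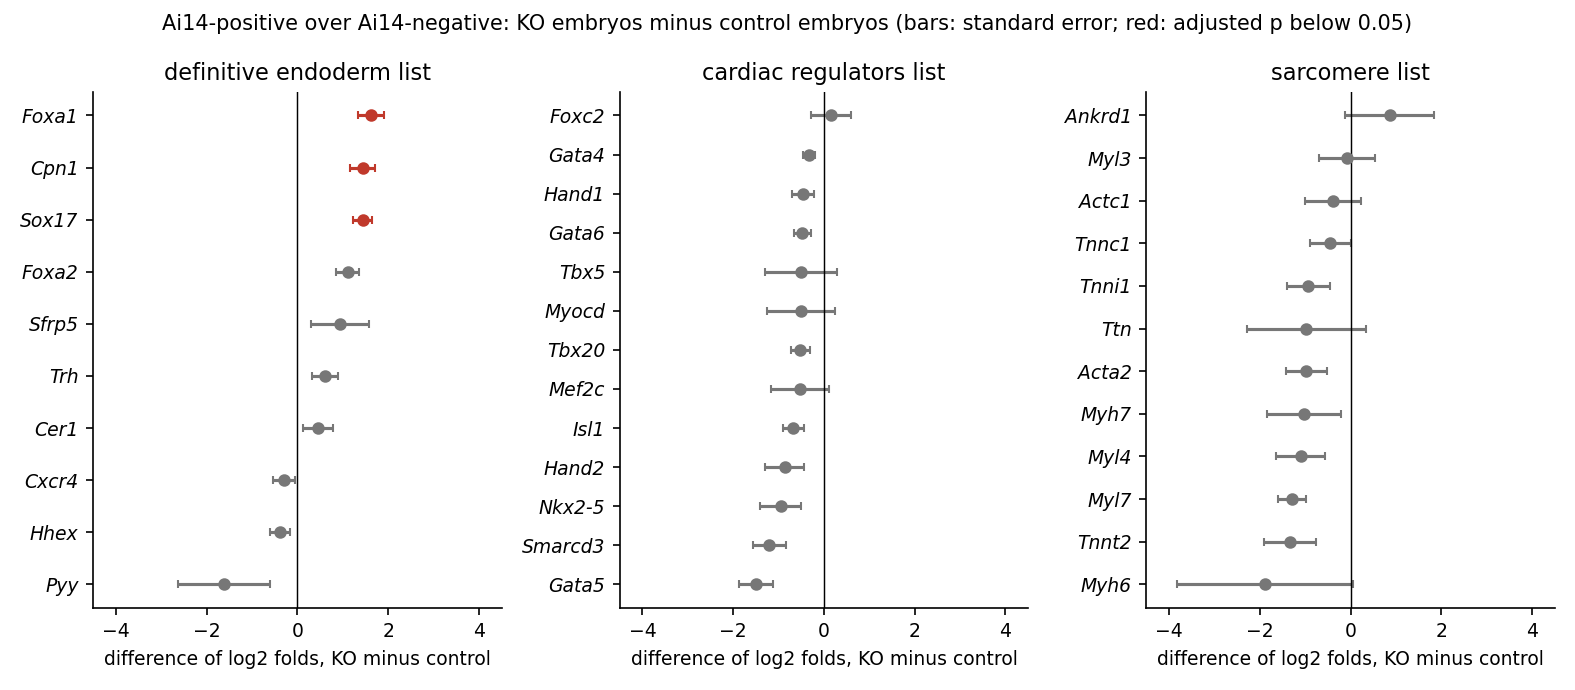
Difference between genotypes (KO minus control) of the Ai14+ against Ai14-negative log2 difference, with SE of the edgeR fit as bars, for definitive endoderm, cardiac regulator and sarcomere genes. *Foxa1*, *Cpn1* and *Sox17*, drawn in red, have adjusted p below 0.05, and no cardiac or sarcomere gene does.

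Among streak genes, *Fgf8* passed in this model (0.99 ± 0.15, edgeR adjusted p = 0.0102), but not without the E6.5 KO embryo (0.134), without the E7.0 embryo (0.11) or after thinning (0.146). It measured 244 against 139 CPM, 209 against 112 CPM and 58.6 against 57.1 CPM in the KO, and in controls the Ai14+ level was below the Ai14-negative level in 9 of 10 embryos. *Mixl1* (0.75) and *Eomes* (0.78) did not pass, each at an adjusted p of 0.153. The 13 cardiac regulators had a median of -0.52 and the 12 sarcomere genes of -0.97, but none passed in either list. *Gata5* differed by -1.5 (adjusted p = 0.111), *Smarcd3* by -1.20 (0.233), *Myl7* by -1.29 (0.0934) and *Tnnt2* by -1.34 (0.515). In controls alone all 13 cardiac regulators were higher in Ai14+ cells, with a median of 2.18, against 9 of 13 and 1.69 in the KO. The control and KO counts come from 10 and 3 embryos, and only the model of both tests the difference.

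By size, the genes most raised in the KO relative to the control difference included *Nkx1-2* (2.08, adjusted p = 0.0137), *Ovol2* (1.60), *Cpn1* (1.44), *Sox17* and the glypican *Gpc4* (1.39). *Gpc4* averaged 42.9 against 37.2 CPM in the KO and 14.7 against 37.9 CPM in controls, and *Nkx1-2* 4.12 against 1.74 CPM and 7.63 against 16.4 CPM. The most reduced were *Anxa11* (-1.39), *Leprel1* (-1.28), *Usp51* (-1.24), *Ppp1r1a* (-1.19), *Tubb4a* (-1.13) and *Pdlim2* (-1.07). *Anxa11* averaged 8.24 against 20.1 CPM in the KO and 24.9 against 24.2 CPM in controls. Without the E6.5 or E7.0 KO embryo 4 or 6 genes passed in all, and 94 without the late one. None of the genes named here by size passed without the E6.5 embryo (for example *Nkx1-2* at an adjusted p of 0.134 and *Anxa11* at 0.24), and without the E7.0 embryo *Gpc4* (0.039) was the sole one that did. *Usp51* changed sign under thinning, its values running from -1.76 to 0.15.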

How the data were processed

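The authors deposited, for each embryo, a filtered matrix of UMI counts per gene and cell from 10x 5′ libraries, made with Cell Ranger 3.0.2 on mm10 to which the eGFP and Ai14 sequences had been added. Its values are raw counts. Barcodes with under 10% mitochondrial UMIs, under 50000 UMIs and 200 to 7000 genes were kept, 93701 of 99474, and KO libraries held 41846027 to 51599340 UMIs. Cells with 1 or more Ai14 UMIs and cells with 0 were summed per embryo and compared with edgeR 4.0.16 (quasi-likelihood test, TMM, embryo as block, Ai14 left out), adjusted by Benjamini-Hochberg at 0.05. The fractions of an embryo come from the same library, and their deviations correlated at 0.530 to 0.671. DESeq2 1.42.0 was an alternative. The test between genotypes added a side effect per stage. eGFP shares were tested by exact permutation over embryos. Ai14 shares, which rest on the count that chose the cells, are given as descriptions.

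Each embryo was clustered alone in scanpy 1.11.5 (2000 variable genes, 30 components, 15 neighbours, Leiden resolution 1) and a cluster was named when at least 3 markers were 2-fold higher and its leading genes did not go against the name. A sum needed 10 cells. Doublets were scored with scrublet, kept, and left out in an alternative. Named genes were list members, up to 12 per direction by size among calls of like sign in 3 embryos with 10 CPM or more, up to 6 per direction between genotypes and, within mesoderm, the 5 smallest p-values. Members and lists were chosen with earlier results of these data known. Results for 3 genes are not reported here. The endoderm-like tests were added after seeing the data. Scripts were tested on simulated data.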

Additional observations from a re-analysis of the deposited data

Results flagged for a closer look

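Among the 10 control embryos with the reporter, 1 late control (E7.75) had the lowest share, 4.67% Ai14+ cells, its gap to the next embryo being 0.480 of the whole range. It has a median of 3925.5 UMIs per cell, close to the late KO embryo of the same experiment. Among the 5 controls with an endoderm to mesoderm ratio, the E7.0 control had the highest, 0.195, with a gap of 0.820 of the range, and it is the control nearest to the KO ratios. Both measures rest on the Ai14 count that chose the cells and are given as descriptions of spread, and chance alone would mark about 1 in 20 such groups.

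The Ai14 difference passed the test between genotypes for 73 genes. Those named by size include *Nkx1-2* (2.08), *Ovol2* (1.60), *Cpn1* (1.44), *Sox17* (1.43) and *Gpc4* (1.39) among the higher and *Anxa11* (-1.39), *Leprel1* (-1.28), *Usp51* (-1.24), *Ppp1r1a* (-1.19), *Tubb4a* (-1.13) and *Pdlim2* (-1.07) among the lower. *Ovol2*, a repressor of mesenchymal genes, averaged 8.70 CPM in Ai14+ and 10.6 CPM in Ai14-negative KO cells, against 2.49 and 7.63 CPM in controls. The Ai14+ share of definitive endoderm-like cells lay 14.3 percentage points higher in KO than in control embryos on average over stages, given as a description. In the 2 control embryos without the reporter, 2.70% and 2.44% of cells held an Ai14 UMI.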

How the results depend on the processing

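The *Mesp1* KO contrast over all cells gave 211 genes after thinning to 2000 UMIs, 149 with no replicate block, and 388 to 5656 when an embryo was left out. In controls it gave 911 thinned and 3189 with no block. The test between genotypes gave 182 genes with at least 2 Ai14 UMIs, 39 thinned, 35 with depth-matched negative cells, 317 with no filter, 0 with no block in edgeR (349 at an unadjusted p below 0.05), and 4 to 94 with a KO embryo left out. Within mesoderm-like clusters the counts were 5 with at least 2 UMIs, 0 thinned, 3 depth-matched, 2 without doublets, 28 with the unnamed clusters included and 5 to 18 with an embryo left out. Outside them they were 139 thinned, 1632 with DESeq2, 1654 at Leiden resolution 2, 1266 with the unnamed clusters moved and 796 to 4585 with an embryo left out. Within endoderm-like clusters they were 106 with at least 2 UMIs, 1 thinned, 96 depth-matched, 130 without doublets, 21 with DESeq2 and 68 to 317 with an embryo left out. The endoderm share differed by 7.73 points with at least 2 UMIs, and by 8.82 to 20.03 points with a KO embryo left out. Against controls of the same age, all from other experiments, it differed by 11.7 points. The Ai14 share differed by -1.87 and -2.08 points without the E6.5 or E7.0 KO embryo, and by up to 4.86 points. The eGFP gap was 3.09 points after thinning and ran from 13.3 to 25.97 points with a KO embryo left out. In each case the cause was not tested beyond the fewer UMIs, cells or embryos that the setting itself leaves. For the 24 genes picked by size in the KO contrast 208 of 261 alternative values kept the call and the direction, 53 kept the direction only and 0 reversed, while *Usp51* in the test between genotypes went to 0.15 after thinning. The late KO library had a median of 3827 UMIs per cell, and what its depth limits was not tested further.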
